A study of Mus musculus with 2 samples.

Results

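Toll-like receptors and the proteins that carry their signal were followed in the blood cells of a mouse model of Alzheimer's disease. The set holds 8 of the 32285 genes in the count tables, taken by symbol: the receptors Tlr2, Tlr4, Tlr7 and Tlr13, the Tlr4 partner Ly96, the adaptor Myd88, and the signalling proteins Irak2 and Irak3. The data were 2 single-cell RNA-seq libraries of blood cells that had been enriched for neutrophils by negative selection. The WT library held cells of C57BL/6J mice and the APP/PS1 library cells of transgenic mice that carry the APP and PS1 transgenes, and both came from females of 7 months, with 3 mice pooled per library. The strain background of the APP/PS1 mice and the promoter that drives the transgenes are not given in the sources used here, and no treatment was given to either group. Because each genotype had 1 library and the mice cannot be told apart within it, no difference between genotypes could be tested. The intervals printed here are exact 95% intervals that cover counting error only.

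Toll-like receptors are sensors of microbial molecules and of molecules released by damaged cells. Tlr2 and Tlr4 sit on the cell surface and detect bacterial lipoproteins and lipopolysaccharide, while Tlr7 and Tlr13 sit in endosomes and detect RNA. On binding their ligand, these receptors recruit the adaptor Myd88, which gathers Irak kinases and leads to activation of NF-kappaB and of MAP kinases. Neutrophils and monocytes are among the blood cells best known for this response.

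The WT library held 17123 cells and 92458623 unique molecular identifiers (UMIs, each standing for 1 captured mRNA molecule), and the APP/PS1 library 17645 cells and 84870864 UMIs. The libraries shared 83 cell barcodes, 63 of them among the kept cells. After the filter on cells 14564 and 15208 cells remained, which were clustered without the 8 genes and without the other genes of the pathway, and clusters were named from marker genes. A name such as neutrophils or dendritic cells therefore stands for a cluster that resembles that type. Although the labels give neutrophils as the cell type, 17146 of the 29772 kept cells (57.6%) fell into neutrophil clusters, and the others were mainly monocytes. The main neutrophil class held 5772 WT and 6826 APP/PS1 cells, with 16443523 and 20555695 UMIs and a median of 2520 and 2627 UMIs per cell. A further 1798 WT and 2750 APP/PS1 cells were neutrophils whose cluster was led by platelet genes such as Ppbp and Pf4, and these were kept apart. Monocytes numbered 2348 and 1685, and nonclassical monocytes 2837 and 1786. Levels are given as CPM, the UMIs of a gene for every 1000000 UMIs of the same cell type in the same library.

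In neutrophils Tlr2 and Tlr13 were lower in the APP/PS1 library, Myd88 and Ly96 were higher, and Tlr4 and Irak3 differed by no more than counting error. The differences were small. None of the 8 genes had a log2 ratio (APP/PS1 over WT) beyond 0.5 in either direction in neutrophils, where 8.62% of the 7726 genes with at least 100 UMIs did (5.22% above and 3.4% below). All 8 genes passed that minimum. Counting error was small at this depth, so that over all genes the interval of the log2 ratio lay wholly above 0 for 25.4% and wholly below 0 for 13.1%, and an interval that excludes 0 is common. The median log2 ratio of the 8 genes was 0.00, beside 0.06 over all 7726 genes.

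Tlr2, the receptor for lipoproteins, is encoded by ENSMUSG00000027995 on the minus strand of chromosome 3 (83836272 to 83841767, mm10). Short stretches of promoter sequence are shown for the members with a match to either of the 2 sites through which this pathway and interferon are best known to act on genes, the NF-kappaB site (GGGA, any 4 bases, CC) and the interferon-stimulated response element (GAAA, any 2 bases, GAAA). They were searched on both strands of the 250 bases before each RefSeq gene start. RefSeq promoters (GRCm38.p6) were at hand for 5 of the 8 genes, and Tlr4, Tlr7 and Ly96 had none. The Tlr2 promoter held an NF-kappaB match 172 bases before the start, Myd88 a response element match 40 bases before it, and 1 of the 2 Irak3 promoters an NF-kappaB match 25 bases before it. The capitals mark the match, each line reads 5′ to 3′ on the gene's strand (minus in all 3), and each stretch overlaps an exon of the GENCODE annotation. In Irak3 the match lies on the opposite strand, so its letters appear here as the reverse complement:
Tlr2, chr3:83841761-83841790: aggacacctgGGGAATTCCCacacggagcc
Myd88, chr9:119340039-119340068: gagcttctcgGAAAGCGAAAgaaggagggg
Irak3, chr10:120201603-120201632: ggtctcgcagGGCGCATCCCtggggagcgg
Of all 32851 promoters, 17.6% held the NF-kappaB letters and 2.98% those of the response element, so the first is a common match. Irak2 and Tlr13 had neither. A match describes these letters and is not a measurement of binding.

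Tlr2 was at 209 CPM in WT neutrophils and 162 CPM in APP/PS1 neutrophils, from 3443 and 3324 UMIs. The APP/PS1 level was 0.772 of the WT level, a log2 ratio of -0.37 (-0.44 to -0.30). The intervals of the libraries did not overlap, and the same direction was found in the neutrophils with platelet genes (196 and 163 CPM, log2 ratio -0.26). Monocytes (169 and 138 CPM, -0.29) and nonclassical monocytes (173 and 134 CPM, -0.37) also had less Tlr2 in the APP/PS1 library. Of the 8 genes, Tlr2 was the only one whose interval lay on the same side of 0 in all 4 of these classes. The Tlr7 ratio was also on 1 side, above 0, in all 4 (0.39, 0.38, 0.26 and 0.19). Its interval included 0 only in the neutrophils with platelet genes, which had 27 and 59 Tlr7 UMIs. In neutrophils alone 13.1% of all genes had an interval wholly below 0, and the share of all genes in all 4 classes was not counted. A Tlr2 UMI was found in 38.9% of the neutrophils of the WT and 32.6% of those of the APP/PS1 library, and in 18.6% and 14.2% after each cell had been thinned to 1000 UMIs. T cells, taken here for comparison, gave 8.55% and 5.08% (medians of 4131 and 3484.5 UMIs), or 1.81% and 1.56% when thinned. Most of the neutrophil share thus lay above that of T cells.

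Across cell types Tlr2 was a gene of myeloid cells. In the WT library it was highest in both neutrophil classes, whose intervals overlapped, followed by nonclassical monocytes and monocytes, whose intervals overlapped too. Dendritic cells had 85.3 CPM and T cells, the lowest, 24.3 CPM. In basophils the libraries gave 55.2 and 9.20 CPM (log2 ratio -2.59, -5.72 to -0.55), but from 21 and 2 UMIs. In B cells they gave 33.3 and 11.5 CPM (-1.54, -2.34 to -0.79), from 55 and 21 UMIs. The neutrophil marker list was at 6.94% of its neutrophil level in WT B cells and 4.16% in APP/PS1 B cells, and that share of the neutrophil Tlr2 level comes to 14.5 and 6.73 CPM. The part of neutrophil RNA in the B cell difference was not tested.

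Tlr4 (ENSMUSG00000039005, chromosome 4, 66827584 to 66930284, plus strand), the receptor for lipopolysaccharide, was mostly a neutrophil gene in these cells. It had 39.5 CPM in WT neutrophils and 38.3 CPM in APP/PS1 neutrophils (log2 ratio -0.04, -0.20 to 0.11). The libraries overlapped. Against this, monocytes had 11.5 and 9.87 CPM and nonclassical monocytes 13.6 and 17.0 CPM. Neutrophils were thus 3.44-fold above monocytes in the WT library and 3.88-fold in the APP/PS1 library. In the APP/PS1 library nonclassical monocytes exceeded monocytes 1.72-fold (log2 0.78, 0.43 to 1.14), while in the WT library that difference was within counting error (log2 0.25, -0.04 to 0.53). Between the libraries, nonclassical monocytes gave a log2 ratio of 0.32 (-0.01 to 0.63), which includes 0. T cells had 2.89 and 2.41 CPM from 5 UMIs in each library.

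Ly96 (ENSMUSG00000025779, chromosome 1, 16688051 to 16709611, plus strand) encodes MD-2, the protein that binds lipopolysaccharide for Tlr4. In neutrophils it was at 38.3 CPM in the WT library and 46.4 CPM in the APP/PS1 library, 1.21-fold higher (log2 0.28, 0.13 to 0.42). The neutrophils with platelet genes gave 36.6 and 44.5 CPM, again with a log2 ratio of 0.28 (0.03 to 0.54). In monocytes (30.1 and 29.4 CPM) and nonclassical monocytes (25.1 and 24.2 CPM) the libraries overlapped. In neutrophils the interval of the Tlr4 ratio (-0.20 to 0.11) and that of the Ly96 ratio did not overlap. In monocytes and nonclassical monocytes the ratio intervals of both genes included 0. Ly96 also had a narrower range over cell types than Tlr4, with 30.1 CPM in WT monocytes against 38.3 CPM in WT neutrophils.

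Tlr7 (ENSMUSG00000044583, chromosome X, 167304929 to 167330558, minus strand), a sensor of single-stranded RNA, showed the opposite distribution. Nonclassical monocytes had 118 CPM in the WT library and 135 CPM in the APP/PS1 library, and monocytes 84.3 and 101 CPM. B cells followed with 29.7 and 24.6 CPM. Neutrophils had only 5.41 and 7.10 CPM, so that monocytes exceeded them 15.6-fold in the WT and 14.3-fold in the APP/PS1 library. This neutrophil level was 6.42% and 7.02% of the monocyte level, and the monocyte marker list in neutrophils stood at 7.10% and 6.43% of its own monocyte level. The marker list's share of the monocyte Tlr7 level comes to 5.98 and 6.51 CPM. The log2 ratio of Tlr7 between the libraries was 0.39 in neutrophils (0.00 to 0.79, from 89 and 146 UMIs), and the part of monocyte RNA in it was not tested. In monocytes and nonclassical monocytes Tlr7 was higher in the APP/PS1 library, with log2 ratios of 0.26 (0.16 to 0.37) and 0.19 (0.08 to 0.30). In B cells Tlr7 exceeded the neutrophil level, and the libraries overlapped.

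Tlr13 (ENSMUSG00000033777, chromosome X, 106143204 to 106160493, plus strand), a sensor of bacterial ribosomal RNA, was at 143 CPM in WT neutrophils and 108 CPM in APP/PS1 neutrophils. The APP/PS1 level was 0.759 of the WT level, a log2 ratio of -0.40 (-0.48 to -0.31), and the neutrophils with platelet genes gave -0.43 (144 and 107 CPM). Nonclassical monocytes did not share the difference, with 148 and 149 CPM (0.01, -0.09 to 0.11), nor did the interval of monocytes leave 0 (99.1 and 93.6 CPM). The gap between these cell types accordingly differed. In the WT library nonclassical monocytes and neutrophils overlapped, whereas in the APP/PS1 library nonclassical monocytes were 1.37-fold above neutrophils (log2 0.46, 0.36 to 0.56). T cells had 13.3 and 10.6 CPM, which is 9.30% and 9.78% of the neutrophil level, near the 8.14% and 9.59% at which the neutrophil marker list stood in them.

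**Figure D1:**
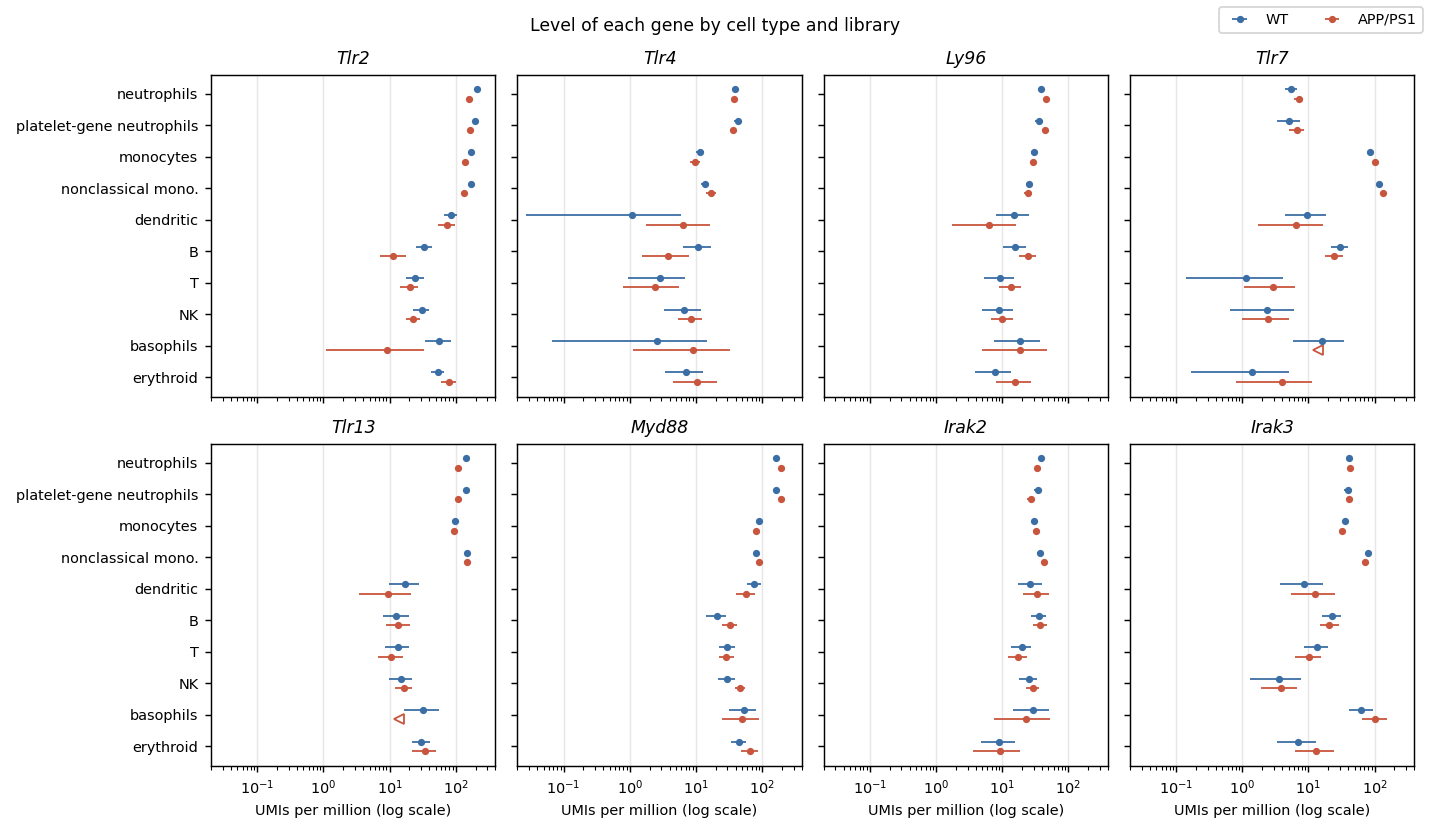
CPM (log axis) of the 8 genes in 10 cell classes, with WT in blue and APP/PS1 in red. Points are summed UMIs of a class in 1 library, bars are exact 95% intervals for counting error, and an open triangle marks the level of 3 UMIs where no UMI was found. Tlr4 and Myd88 were highest in both neutrophil classes, Tlr7 in both monocyte classes, and Irak2 had overlapping intervals in WT neutrophils, nonclassical monocytes and B cells.

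Myd88 (ENSMUSG00000032508, chromosome 9, 119335934 to 119341411, minus strand), the adaptor that the receptors above share, was highest in neutrophils. It had 163 CPM in the WT library (2677 UMIs) and 195 CPM in the APP/PS1 library (4009 UMIs), a log2 ratio of 0.26 (0.19 to 0.33). The neutrophils with platelet genes were alike (164 and 193 CPM, 0.24). Monocytes went the other way by less, with 90.0 and 81.7 CPM (-0.14, -0.25 to -0.03), a sign that turned to 0.03 (-0.04 to 0.11) when no percentile limits were set on the cells. Nonclassical monocytes gave 82.3 and 89.8 CPM (0.13), with an interval that included 0. Neutrophils therefore exceeded monocytes 1.81-fold in the WT library and 2.39-fold in the APP/PS1 library. NK cells had 29.4 and 47.1 CPM (log2 0.68, 0.20 to 1.18, from 49 and 136 UMIs). The neutrophil marker list stood in them at 10.4% and 11.4% of its neutrophil level. That share of the neutrophil Myd88 level comes to 16.9 and 22.2 CPM, and the part of neutrophil RNA in the NK cell difference was not tested. A Myd88 UMI was found in 35.7% of the neutrophils of the WT and 41.6% of those of the APP/PS1 library, and in 15.9% and 18.4% after thinning. In T cells the shares were 11.4% and 9.38%, and 2.33% and 2.73% after thinning.

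Irak2 (ENSMUSG00000060477, chromosome 6, 113638467 to 113695026, plus strand), a kinase-like protein of the signalling complex that sustains the response, was found in lymphoid as well as myeloid cells. In the WT library neutrophils (38.9 CPM), nonclassical monocytes (36.8 CPM) and B cells (36.4 CPM) overlapped. Monocytes (30.7 CPM), NK cells (25.2 CPM) and T cells (19.6 CPM) lay below neutrophils, by log2 ratios of -0.34, -0.63 and -0.98 whose intervals excluded 0. In the APP/PS1 library the order differed, and nonclassical monocytes exceeded neutrophils (log2 0.36, 0.18 to 0.55). There the intervals of monocytes (-0.06) and NK cells (-0.21) against neutrophils included 0, and that of T cells (-0.96) did not. The libraries gave 38.9 and 33.8 CPM in neutrophils, a log2 ratio of -0.20 (-0.36 to -0.05), and -0.38 (-0.66 to -0.10) in the neutrophils with platelet genes. The latter value was -0.02 among cells with no UMI of other cell types and -0.03 among thinned cells. Nonclassical monocytes had more in the APP/PS1 library (36.8 and 43.4 CPM, 0.24, 0.04 to 0.43). Among cells left with no platelet UMI, the neutrophil ratio was -0.22 with an interval that included 0 (-0.45 to 0.00).

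Irak3 (ENSMUSG00000020227, chromosome 10, 120141648 to 120202130, minus strand), also called IRAK-M, restrains Toll-like receptor signalling. It was highest in nonclassical monocytes (80.5 CPM in the WT and 72.0 CPM in the APP/PS1 library) and in basophils (63.1 and 101 CPM, from 24 and 22 UMIs), whose intervals overlapped in both libraries. Neutrophils had 41.1 and 42.4 CPM (log2 ratio 0.05, -0.10 to 0.19), and monocytes 36.3 and 32.5 CPM. Nonclassical monocytes exceeded monocytes 2.22-fold in both libraries. They also gave the only Irak3 interval of the 4 main classes that did not include 0 (-0.16, -0.30 to -0.02). Monocytes had about the same log2 ratio, with an interval that reached past 0 (-0.16, -0.34 to 0.02). NK cells were lowest, with 6 and 11 UMIs. This negative regulator was thus 1.96-fold higher in WT nonclassical monocytes than in WT neutrophils, whereas Myd88 was 1.98-fold higher in WT neutrophils.

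In the neutrophils with platelet genes 0 of the 7 members over 100 UMIs were beyond 0.5 log2, beside 6.97% of all genes, and in monocytes and nonclassical monocytes 0 of 8, beside 5.14% and 4.67%. The median log2 ratio of all 8 members was -0.08, -0.11 and 0.07 in these classes, beside 0.03, -0.04 and -0.01 over all genes with at least 100 UMIs. In the neutrophils with platelet genes the -0.08 includes Tlr7, which was under the minimum (27 and 59 UMIs). Without Tlr7 the middle ratio of the 7 members was that of Tlr4, -0.22. In erythroid cells, which are not known for these genes, the neutrophil marker list was at 23.9% of its neutrophil level in the WT library, and the 8 members lay between 17.0% and 27.5% of theirs. In the APP/PS1 library the list was at 32.9% and the members between 27.1% and 55.1%. Tlr2 exceeded the list there, at 48.4%, with 53.2 and 78.3 CPM in the libraries (log2 ratio 0.56, 0.04 to 1.06, from 76 and 60 UMIs), a sign opposite to that in the 4 main classes.

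**Figure D2:**
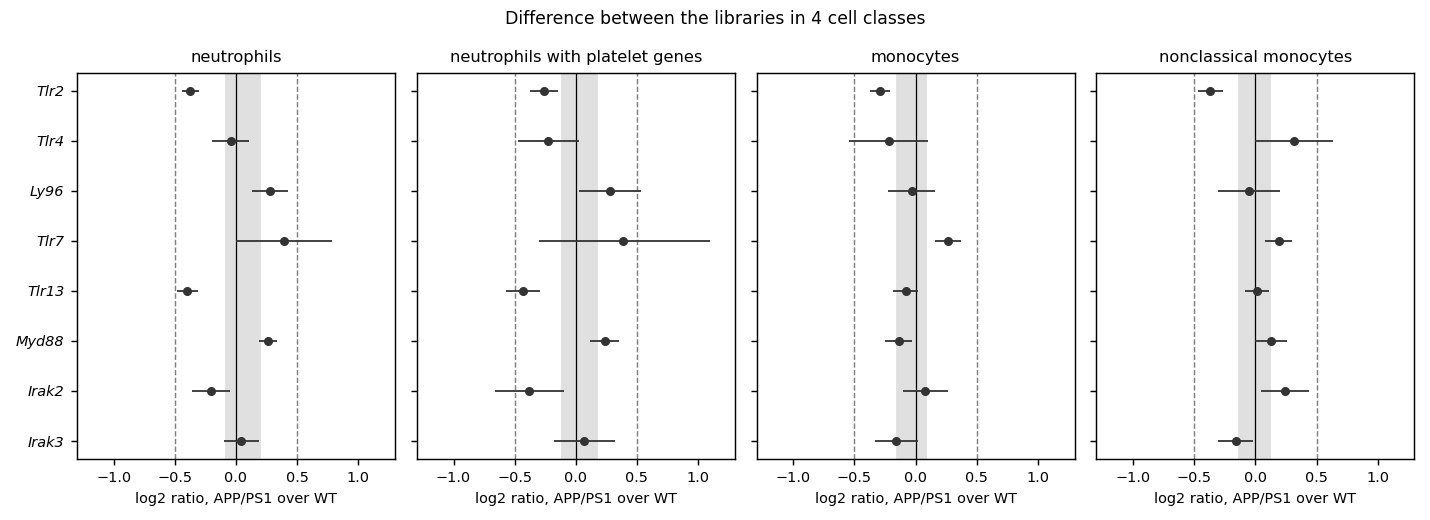
Log2 ratio of CPM, APP/PS1 over WT, for the 8 genes in 4 cell classes. Points are the ratios, bars exact 95% intervals for counting error, the grey band holds the middle 50% of all genes with at least 100 UMIs, and dashed lines mark 0.5 in each direction. The whole interval of Tlr2 lay below 0 in all 4 classes and that of Tlr13 only in the neutrophil classes, and no point lay beyond a dashed line.

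Values that moved with the groups stand beside these differences. In neutrophils the summed level of the 8 neutrophil markers was 184839 CPM in the WT and 156494 CPM in the APP/PS1 library (log2 ratio -0.24, 2 of 8 markers higher). The 6 erythroid markers summed to 1815 and 1147 CPM, the 7 monocyte markers to 481 and 447 CPM, the 7 T cell markers to 13.3 and 61.3 CPM, the 6 NK cell markers to 15.4 and 27.7 CPM and the 5 plasma cell markers to 10.5 and 53.5 CPM. Each of these lists had no marker at 0. In monocytes the neutrophil markers summed to 11914 and 8557 CPM (0 of 8 higher) and the erythroid markers to 1562 and 823 CPM. In nonclassical monocytes these sums were 19000 and 16902 CPM and 1372 and 609 CPM. Their part in the monocyte results was not tested. Within neutrophils that carried no UMI of the monocyte, B, T, NK, basophil, plasma cell and plasmacytoid markers, the log2 ratio was -0.34 for Tlr2, -0.53 for Tlr13, 0.25 for Myd88 and 0.37 for Ly96. The differences of these 4 genes had the same direction in those cells, and Tlr13 passed 0.5 there. Those cells held 4118694 WT and 4741643 APP/PS1 UMIs, a small part of the class, and cells with erythroid or platelet UMIs stayed in. The part of RNA from other cells was therefore not tested. The part of the lower neutrophil markers in the results was not tested.

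The neutrophils fell into 6 clusters after integration of the libraries. Cluster 0 was led by Stfa2 and Retnlg, cluster 1 by Clec4n, Dusp2 and Csf1, cluster 2 by platelet genes, cluster 3 by interferon-induced genes such as Ifit1 and Rsad2, cluster 4 by the granule genes Camp, Ngp and Ltf, and cluster 5 by mitochondrial genes. The share of cluster 1 was 16.7% in the WT and 26.4% in the APP/PS1 library, and that of cluster 0 was 40.7% and 32.3%. Since the shares of the clusters differed between the libraries, the members were also compared within clusters.

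Within clusters the directions found in all neutrophils were mostly kept. Tlr2 was lower in the APP/PS1 library in all 6 clusters, with intervals that excluded 0 in clusters 0 to 4. In cluster 0 it had 204 and 167 CPM and in the interferon cluster 227 and 177 CPM. Tlr13 was likewise lower in all 6 clusters, with the interval of cluster 4 alone including 0. Myd88 was higher in 5 of 6 clusters, and its intervals excluded 0 in clusters 0 to 3. Ly96 excluded 0 in clusters 0 and 2, and Irak2 was lower with an interval excluding 0 in clusters 1 and 2.

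Myd88 also differed between the clusters. Cluster 1 had 197 CPM in the WT and 239 CPM in the APP/PS1 library, the highest of the clusters. Its interval overlapped those of clusters 3 and 5 in the WT library and that of cluster 5 in the APP/PS1 library. Cluster 4, whose granule genes are made early in neutrophil development, had 76.6 and 61.9 CPM. In that cluster the log2 ratio between the libraries was -0.31 (-0.79 to 0.18). Tlr2 (146 and 90.7 CPM), Tlr13 (78.9 and 56.9 CPM) and Tlr4 (22.0 and 15.1 CPM) were also lowest in cluster 4 in the WT library. Irak3 was not, with 37.1 CPM in WT cluster 4 beside 36.9 CPM in cluster 0 and intervals that overlapped. Irak2 had 52.7 and 39.5 CPM in cluster 1 and 46.4 and 39.4 CPM in the interferon cluster, with overlapping intervals, beside 31.5 and 26.9 CPM in cluster 0.

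**Figure D3:**
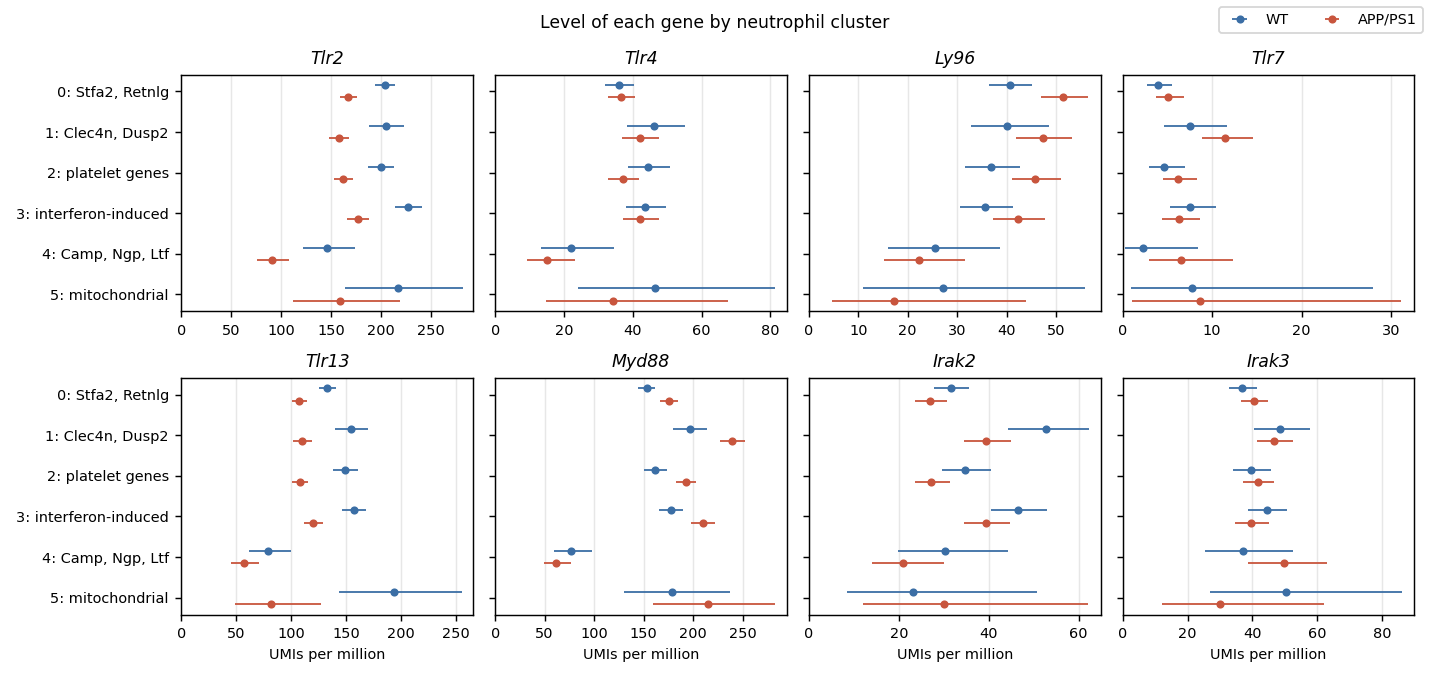
CPM of the 8 genes in the 6 neutrophil clusters, with WT in blue and APP/PS1 in red. Points are summed UMIs of a cluster in 1 library and bars are exact 95% intervals for counting error. Myd88 was highest in cluster 1, with an interval that overlapped clusters 3 and 5 in the WT library and cluster 5 in the APP/PS1 library. Myd88, Tlr2, Tlr13 and Tlr4 were low in cluster 4.

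The other genes of the pathway were taken from a list of 78 receptors, co-receptors, adaptors, kinases, inhibitors, transcription factors and induced targets, of which 59 had at least 100 UMIs in neutrophils. In neutrophils 2 of them were beyond 0.5 log2 above and 6 below, and 51 lay between (all genes 5.22% above and 3.4% below). Their median log2 ratio was 0.06. The co-receptors lay farthest from 0, with 3 of 4 below -0.5. Of these, only Cd14 was well above the minimum, with 23959 UMIs over both libraries. Ly86, Cd36 and Lbp had 115, 108 and 104.

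Cd14, the co-receptor that hands lipopolysaccharide to Tlr4 and Ly96, was at 1028 CPM in WT neutrophils and 343 CPM in APP/PS1 neutrophils, a log2 ratio of -1.58 (-1.62 to -1.54). It was lower in the neutrophils with platelet genes (924 and 330 CPM, -1.49), monocytes (418 and 172 CPM, -1.28) and nonclassical monocytes (216 and 75.6 CPM, -1.51) as well. Its difference exceeded those of Tlr4 and Ly96 in each class. Lbp, the plasma protein that delivers lipopolysaccharide to Cd14, had 70 and 34 UMIs in neutrophils (4.26 and 1.65 CPM, -1.36). Cd36, a scavenger receptor that works with Tlr2, had 61 and 47 UMIs (-0.70, -1.28 to -0.13). It was among the leading genes of the nonclassical monocyte cluster, and the part of monocyte RNA in its neutrophil values was not tested.

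Of the 8 other Toll-like receptors on the list, 3 passed the minimum in neutrophils, and none had an interval that excluded 0. Tlr6, the partner of Tlr2, had 38.6 and 37.9 CPM (-0.03), and Tlr8 and Tlr5 had log2 ratios of 0.21 and 0.18. Of the 5 trafficking genes over the minimum, 4 had an interval wholly above 0 and 0 below, beside 25.4% and 13.1% of all genes. Unc93b1, which escorts the endosomal receptors Tlr7 and Tlr13 out of the endoplasmic reticulum, had 164 and 193 CPM (0.23). Hsp90b1, the chaperone of the receptors, had 33.9 and 40.4 CPM (0.25), and Tmed7 51.8 and 58.0 CPM (0.16). Unc93b1 thus had a ratio above 0 in the class in which Tlr13 had one below it. Fewer trafficking genes had an interval wholly above 0 elsewhere. They were 1 of 5 in the neutrophils with platelet genes, 3 of 7 in monocytes and 2 of 6 in nonclassical monocytes. Wholly below 0 lay 1 in monocytes and 0 in the other classes, and for these classes the interval share of all genes was not counted. The median log2 ratio of the trafficking genes was 0.16 in neutrophils and 0.21 in the neutrophils with platelet genes. It was 0.08 in monocytes and 0.10 in nonclassical monocytes. The neutrophils with platelet genes held fewer UMIs (5296403 and 8875506) than neutrophils (16443523 and 20555695), which widens the intervals.

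Among adaptors Tirap, which bridges Tlr2 and Tlr4 to Myd88, was alike in the libraries (67.6 and 65.7 CPM, -0.04). Pik3ap1 (BCAP), which links the receptors to PI3-kinase, had 120 and 83.2 CPM (-0.53, -0.63 to -0.44), and -0.64 in the neutrophils with platelet genes. In monocytes and nonclassical monocytes it differed by -0.26 and -0.12. Ticam2 stayed under the minimum, with 41 UMIs in each library.

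Map3k8 (Tpl2), the kinase that passes the signal to the ERK pathway, gave the highest ratio of the list in neutrophils. It had 37.5 CPM in the WT and 70.2 CPM in the APP/PS1 library (0.91, 0.77 to 1.05). It was higher in the neutrophils with platelet genes (0.94), monocytes (0.58) and nonclassical monocytes (0.51) too. The other kinases differed less, with -0.20 for Ikbkb and 0.11 for Ripk1. Peli1, a ubiquitin ligase of the Irak complexes, had 104 and 131 CPM (0.34, 0.25 to 0.43), whereas Tab2 (-0.04) and Ube2n (0.02) had intervals that included 0.

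Of 7 transcription factors, Irf7, which induces type I interferon downstream of Tlr7, was the only one with an interval that excluded 0 (131 and 171 CPM, 0.38, 0.31 to 0.46). Nfkb1 (0.08) and Rel (0.04) included it. Among inhibitors the interferon-induced Usp18 had 27.4 and 41.3 CPM (0.59, 0.42 to 0.76). The deubiquitinase Cyld was at 92.1 and 74.7 CPM (-0.30), Nfkbia, the inhibitor of NF-kappaB, at 597 and 648 CPM (0.12), and Dok3 at 159 and 156 CPM (-0.03).

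Of 10 targets that NF-kappaB induces, 0 lay above 0.5 in neutrophils, 2 below and 8 between. By interval 6 of them lay wholly above 0 and 2 wholly below, beside 25.4% and 13.1% of all genes. The shares are not matched for depth, and genes with more UMIs have narrower intervals. Il1b, Cxcl2 and Ptgs2 had 558670, 123177 and 43913 UMIs in neutrophils. The median log2 ratio of the 10 targets was 0.06, as it was over all genes. Il1b, the cytokine interleukin 1 beta, had 15001 and 15178 CPM in neutrophils (0.02), and Ptgs2 1150 and 1216 CPM (0.08). The chemokine Cxcl2 had 4062 and 2743 CPM (-0.57), and Acod1, which makes itaconate, 916 and 567 CPM (-0.69). Both were about as much lower in the neutrophils with platelet genes, at -0.63 and -0.69. In nonclassical monocytes 3 of 10 targets lay above 0.5 (1.94% of all genes) and 0 below (2.72%), with Ccl3 at 63.1 and 158 CPM (1.32), Nfkbiz at 326 and 511 CPM (0.65) and Tnf at 30.7 and 46.7 CPM (0.61). In monocytes Ccl3 (1.09) and Ccl4 (0.73) were above (2.08% of all genes) and Tnf (-0.70) and Acod1 (-0.67) below (3.06%). Tnf thus stood on opposite sides in the 2 monocyte classes, a difference that was not tested. Of the related receptors that also use Myd88, Il1rap (0.11), Il18r1 (-0.06) and Il18rap (-0.15) stayed within 0.5 in neutrophils.

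**Figure D4:**
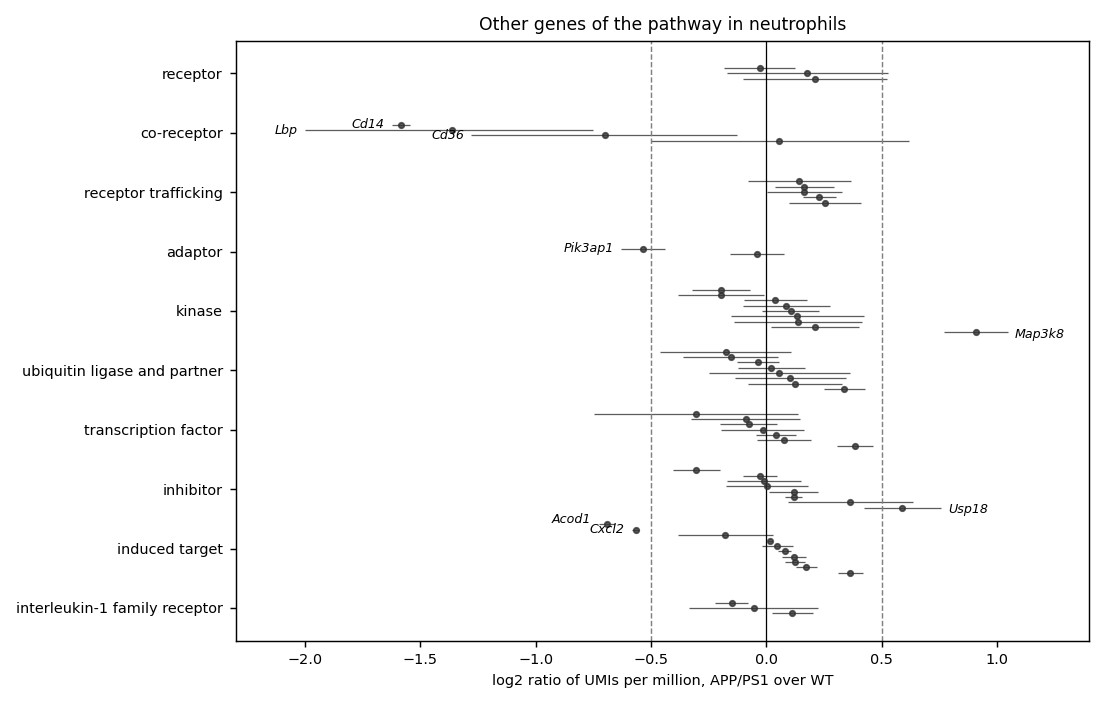
Log2 ratio of CPM in neutrophils, APP/PS1 over WT, for the 59 other genes of the pathway with at least 100 UMIs, grouped by role. Points are genes, bars exact 95% intervals for counting error, and dashed lines mark 0.5 in each direction, with the genes beyond them named. Cd14 and Lbp lay lowest and Map3k8 highest, and 51 genes lay between the dashed lines.

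The profiles over cell types were compared by Pearson's r of log2(CPM + 1) over 20 profiles (10 cell classes in each of 2 libraries), as a description, since profiles of 1 library share its depth and free RNA. Among the members Tlr2 and Tlr13 were most alike (r = 0.89), then Tlr2 and Myd88 (0.82), and Tlr4 and Tlr7 least (0.13). Over 10525 genes, the profile most like that of Tlr2 was that of Rab32 (0.97), followed by Il13ra1 and Csf2ra. For Tlr13 it was Klra2 (0.97), for Myd88 Eif4ebp1 (0.97) and for Tlr7 Lima1 (0.94). Irak2 was nearest to Safb2 (0.94), Ly96 to Xylt1 (0.93), Tlr4 to Txnl4b (0.91) and Irak3 to Cyp4f18 (0.89).

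The genes next to each member on its chromosome, up to 5 on each side that passed the minimum in neutrophils, did not move with it in general. Those around Tlr2 had a median log2 ratio of 0.11 and those around Tlr13 of 0.01, beside -0.37 and -0.40 for the members. Around Myd88 the median was 0.10, with Vill at -1.12 the lowest. Around Tlr7 the median of 7 neighbours was 0.27, beside 0.39 for Tlr7.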

How the data were processed

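Raw UMI counts of each gene in each cell were deposited for both libraries, made by the authors with Cell Ranger 5.0.0 and mm10 (build and version from the submitters' processing notes), with no normalization. Per library, cells were kept between the 5th and 95th percentiles of both gene and UMI number and at no more than 10% mitochondrial UMIs. Seurat 5.3.0 clustered them with 15 principal components from 2000 variable features (resolution 0.5), without the members and the pathway list. Names needed at least 3 markers, and this naming rule was adjusted after cluster tables had been seen. Clusters that met no rule (628 cells) and 32 platelets were not used. Doublets stayed in, and cells with the highest 8% of Scrublet scores (scanpy 1.11.5) were removed in an alternative. Neutrophil clusters came from integrated libraries, without genes over 0.5 log2 apart. CPM had exact Poisson, ratios exact conditional binomial and shares Clopper-Pearson intervals. Only the ratio intervals were checked, on counts simulated with Poisson error, so the check does not cover other spread between cells or mice. Both libraries give 1 value each, so the depth limits precision and no replicate error is known. Pathway genes named are the 3 with most UMIs per role and those beyond 0.5 log2 in neutrophils. Values for other classes and Ccl3, Ccl4, Tnf and Nfkbiz were chosen after their values were seen. Members and lists were chosen with earlier results of these data known. Coordinates are those of GENCODE M21. Alternatives were other cell filters, doublet removal, thinned cells, edgeR 4.0.16 library sizes (TMM), mean over cells and other clusterings.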

Additional observations from a re-analysis of the deposited data

Results flagged for a closer look

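Myd88 and Irak2 differed between the libraries in one direction in neutrophils and in the other in a monocyte class, with intervals that excluded 0 on both sides. Myd88 had a log2 ratio (APP/PS1 over WT) of 0.26 in neutrophils and 0.24 in neutrophils with platelet genes, but -0.14 in monocytes. Irak2 had -0.20 and -0.38 in those neutrophil classes, but 0.24 in nonclassical monocytes. The -0.38 ranged from -0.47 to -0.02 over 10 alternatives. With 1 library per genotype, the difference was not tested.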

How the results depend on the processing

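Of 336 log2 ratios of the members recomputed under an alternative, 316 moved by less than counting error, 19 moved by more, and 1 changed sign with its call, Myd88 in monocytes with no percentile limits (0.034). In neutrophils, over 12 alternatives, Tlr2 ranged from -0.42 to -0.31, Tlr13 from -0.53 to -0.36, Irak2 from -0.28 to -0.19, Myd88 from 0.21 to 0.27, Ly96 from 0.17 to 0.37 and Tlr7 from 0.25 to 0.61, while Tlr4 and Irak3 took both signs. The number of members beyond 0.5 log2 with at least 100 UMIs in neutrophils was 1 (Tlr13) in cells with no UMI of other cell types and 0 otherwise; Tlr7 had fewer UMIs where it reached 0.61. In the neutrophils with platelet genes, Tlr13 ranged from -0.66 to -0.42 and Irak2 from -0.47 to -0.02. The pathway count, 8 in neutrophils, was 5 in cells with no platelet UMI and 5 with cells thinned to 1000 UMIs. Both alternatives leave fewer UMIs, and the cause of the lower counts was not tested. At the stricter threshold of 1 log2 the count was 2. Including the platelet-led cluster, an alternative chosen after seeing the data, gave 0 and 8. Levels by cell type moved by more than counting error in 71 of 592 cases and levels by neutrophil cluster in 7 of 240 cases. TMM library sizes shifted all neutrophil ratios by -0.05. No paired analysis was possible because each genotype has 1 library. Precision is limited most in basophils, dendritic cells and erythroid cells, where several members had fewer than 10 UMIs.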
